A study of Mus musculus with 6 samples.

Results

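The acinar identity transcription factors are a group of 9 genes: Ptf1a, Rbpjl, Rbpj, Nr5a2, Bhlha15, Nr0b2, Prox1, Foxp1 and Mecom. Several encode proteins that set up or hold the enzyme-secreting state of the pancreatic acinar cell. All 9 were chosen by name, with earlier results of these data known, and were found among the 23099 gene symbols of the data. Mecom has 2 rows and the row with the higher mean was used; the others have 1. RNA came from whole pancreas at 8 weeks of age, with 3 libraries from wild-type (WT) mice and 3 from Ela1-Myc mice; a further allele, agent or strain is not stated for either group. Ela1-Myc mice carry Myc, which encodes a growth-promoting transcription factor, under the promoter of elastase 1, an acinar enzyme gene, so the transgene is driven in acinar cells while the RNA is of the whole organ. The comparison asks how the adult pancreas differs when Myc stays on in acinar cells. Separate mice are not stated as the source of replicate libraries, and p-values then measure only how these libraries vary, which may be technical. Levels are the authors' adjusted FPKM, a length-corrected measure of transcript abundance, divided by 100000, and the depth of the libraries is unknown.

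PTF1 is a complex of the bHLH factor Ptf1a, a ubiquitous bHLH partner called an E protein, and a further subunit. That subunit is Rbpj, the DNA-binding protein of Notch signalling, in early pancreatic progenitors, and its acinar paralog Rbpjl in maturing and adult acinar cells. Nr5a2, an orphan nuclear receptor, works with PTF1 on the digestive enzyme genes, and Bhlha15 (Mist1) builds the machinery for storing and releasing enzyme granules.

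The libraries differ in ways that bear on every level below. Among the 8802 genes with a mean of at least 1, 592 to 1426 are listed at 0 in the WT libraries and 0 to 29 in the Ela1-Myc libraries, and an exact 0 here is not evidence of absence. The deposited values are higher in Ela1-Myc for most genes (median log2 change 1.22), and this median fell to 0.22 after median-of-ratios scaling, which divides each library by its median ratio to the geometric mean of 11198 genes above 0 in all 6 libraries. Both scales are therefore given, and within-library measures beside them. Myc itself was at 4.10 in WT replicate 2, was listed at 0 in the other 2 WT libraries, and reached 52.0, 34.4 and 34.2 in the Ela1-Myc libraries; the values do not separate transgene from endogenous transcripts. Acinar markers were the most abundant of the marker lists in every library: the summed level of Cpa1, Cela1, Ctrb1, Pnlip and Cel ran from 241016 to 740662 in WT and from 145434 to 317121 in Ela1-Myc. In whole tissue, fewer acinar cells and less RNA per acinar cell cannot be told apart. RNA integrity numbers were 7.3, 7.3 and 7.1 (WT) against 8.8, 7.2 and 8.3 (Ela1-Myc).

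On the deposited scale 2 of the 7 tested factors, Rbpj and Foxp1, were higher in Ela1-Myc than in WT, none was lower and 5 were not called (limma, Benjamini-Hochberg adjusted p under 0.05 over 8802 genes). Over all tested genes 70.2% were called higher and 0.239% lower, so the higher calls are fewer among these factors than in the background. After median-of-ratios scaling 3 of the 7, Rbpjl, Bhlha15 and Nr0b2, were lower and none was higher, against 7.08% of all tested genes lower and 17% higher. The median log2 change of the 7 was 0.15 on the deposited scale and -1.29 after scaling, beside 1.22 and 0.22 over all tested genes. Quantile normalization of the deposited values gave 5 lower, against 20% of all genes, and leaving out the enzyme genes with the other totals made equal gave 3, against 4.28%. All 7 lay above 0 in all 6 libraries. Foxp1 had WT levels under 1 in every library and passed the filter through its Ela1-Myc values, so its call is a description only. Prox1 and Mecom had means under 1 (0.331 and 0.876) and were not tested in this fit.

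**Figure D1:**
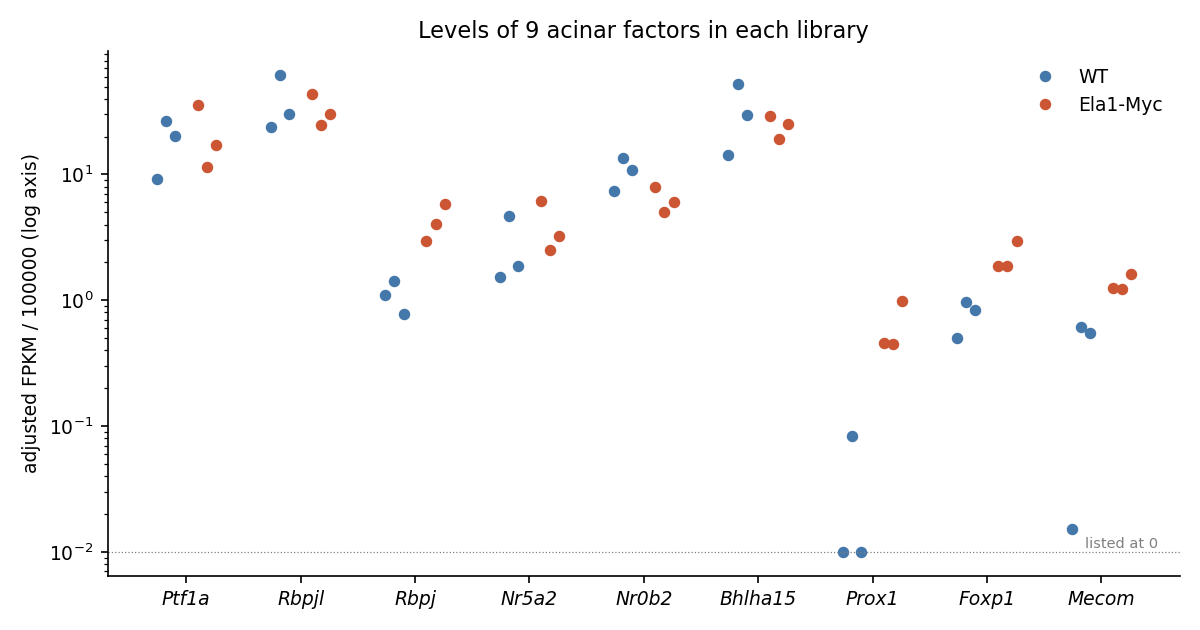
Level of each of the 9 factors (adjusted FPKM divided by 100000, log axis) in the 3 WT and 3 Ela1-Myc libraries, with 1 point per library and values listed at 0 drawn on the dotted line. Rbpjl, Bhlha15 and Ptf1a stand highest and their groups overlap, while for Rbpj, Foxp1, Mecom and Prox1 the 3 Ela1-Myc libraries sit above the 3 WT libraries.

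The order of the levels was nearly the same in every library. Rbpjl was the most and Prox1 the least abundant of the 9 in all 6. Bhlha15 lay above Ptf1a in 3 WT and 2 Ela1-Myc libraries. The order of Nr5a2 and Rbpj held in 3 WT libraries but in 1 Ela1-Myc library, since Rbpj was the higher in Ela1-Myc replicates 2 and 3. Rbpj lay above Foxp1 in 2 WT and 3 Ela1-Myc libraries, and the remaining neighbours kept their order in all 6. FPKM is corrected for transcript length, but how the values were then adjusted was not given. The order between genes is therefore a description only.

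Ptf1a, the bHLH subunit that gives the complex its pancreatic specificity, maps to chromosome 2, 19445663 to 19447501 (GRCm38). Its deposited level was 9.23, 26.5 and 20.3 (WT, replicates 1 to 3 here and below) against 35.5, 11.5 and 17.0 (Ela1-Myc). The groups overlapped, with the highest value in Ela1-Myc replicate 1 and the lowest in WT replicate 1. The log2 change on log2(value + 1), the scale of every limma change below, was 0.15 ± 0.652 (SE; limma adjusted p = 0.835), with a 95% interval from -1.24 to 1.55. After median-of-ratios scaling Ptf1a was at 23.1, 30.8 and 34.5 (WT) against 22.4, 7.57 and 8.25 (Ela1-Myc). All Ela1-Myc libraries then lay below all WT libraries, Ela1-Myc replicate 1 by a small margin, and the log2 change of -1.29 ± 0.464 missed the threshold (limma adjusted p = 0.0842).

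Rbpjl, the acinar-restricted subunit (chromosome 2, 164403194 to 164415448), was at 23.6, 62.2 and 30.3 (WT) against 43.6, 24.6 and 30.2 (Ela1-Myc) on the deposited scale. WT replicate 2 was the highest library and the groups overlapped, with a log2 change of -0.15 ± 0.691 (limma adjusted p = 0.844). Scaled levels were 59.1, 72.4 and 51.5 (WT) against 27.5, 16.2 and 14.6 (Ela1-Myc), without overlap. Rbpjl was lower by the scaled test, with a log2 change of -1.64 ± 0.376 (limma adjusted p = 0.0243), and the mean was 3.14-fold higher in WT than in Ela1-Myc. The gene overlaps Matn4 on the other strand, at a deposited 1.59 to 4.54 in WT and 3.16 to 11.7 in Ela1-Myc. The annotation also holds genes on the other strand over Ptf1a, Rbpj, Prox1 and Mecom. Foxp1 and Mecom overlap genes on their own strand. Use of strand in the counting was not given in the sources used here, so reads shared with overlapping genes make these levels uncertain.

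Rbpj, the subunit that also carries Notch signals to DNA (chromosome 5, 53555779 to 53657445), had higher deposited levels in Ela1-Myc. Its level was 1.10, 1.43 and 0.781 (WT) against 2.97, 4.01 and 5.80 (Ela1-Myc). Every Ela1-Myc library exceeded every WT library, the mean was 3.86-fold higher, and the log2 change was 1.30 ± 0.316 (limma adjusted p = 0.00281), close to the median of all tested genes. Scaled levels of 2.74, 1.67 and 1.33 (WT) against 1.88, 2.65 and 2.81 (Ela1-Myc) overlapped, with a log2 change of 0.26 ± 0.239 (limma adjusted p = 0.441). The annotation holds 2 processed pseudogenes of Rbpj, Rbpj-ps1 and Rbpj-ps3, so reads shared with them make its level uncertain.

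Sequences before RefSeq start sites of the PTF1 subunits are printed because the subunits are themselves DNA-binding proteins with known letters: Rbpj and Rbpjl bind TGGGAA, and Ptf1a with an E protein binds an E box, CANNTG. The stretches are from RefSeq on GRCm38.p6, on the strand of the gene, 5′ to 3′, with each match on either strand in capitals. All 9 factors matched the promoter table, with 15 promoters of 300 bases.
Ptf1a, chr2:19445413-19445662: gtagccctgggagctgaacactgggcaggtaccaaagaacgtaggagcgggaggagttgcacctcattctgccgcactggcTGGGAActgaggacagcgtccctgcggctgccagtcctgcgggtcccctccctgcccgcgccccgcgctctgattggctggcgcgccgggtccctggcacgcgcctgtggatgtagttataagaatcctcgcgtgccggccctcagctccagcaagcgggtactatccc
Rbpjl, chr2:164403090-164403117: TGGGAAgcctaCATCTGcccagCAGGTG
Rbpj, chr5:53590096-53590213: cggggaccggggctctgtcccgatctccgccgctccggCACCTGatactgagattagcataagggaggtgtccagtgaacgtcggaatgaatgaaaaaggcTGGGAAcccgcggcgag
The Rbpj stretch lies before a RefSeq start inside the interval given above for the gene, and of its 2 promoters, both with TGGGAA, it belongs to the one with an E box. The Rbpjl stretch, which ends 77 bases before the start of RefSeq's first exon, holds TGGGAA and an E box within 30 bases. Of the 9 factors Rbpjl alone had such a pair, which 4.84% of all 32851 promoters hold. TGGGAA occurs in 25.6% and CANNTG in 72.3% of all promoters. Of the 16 digestive enzyme genes used below, 13 matched, and of these 8 held TGGGAA, 10 held CANNTG and 3 held the pair. A match of letters is a description of the sequence and no evidence of binding.

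The ratio of the paralogs within a library is free of any factor that scales the library. Rbpjl exceeded Rbpj by 21.6-, 43.4- and 38.7-fold in WT and by 14.6-, 6.13- and 5.21-fold in Ela1-Myc. Every Ela1-Myc library lay below every WT library, with mean ratios of 34.6 ± 11.5 for WT and 8.66 ± 5.20 for Ela1-Myc (SD, n = 3 each; exact two-sided permutation p = 0.1). That p is the smallest that 3 against 3 libraries allow, and it was 0.4 adjusted over the 8 ratios compared. The ratio of Rbpjl to each of the tested genes was lower in Ela1-Myc without overlap for 73.3% of them, so the lower ratio to Rbpj is one of many. The ratio of Rbpjl to Ptf1a, the subunits of the adult complex, was 2.56, 2.35 and 1.49 (WT) against 1.23, 2.14 and 1.78 (Ela1-Myc), and it overlapped (exact permutation p = 0.5). The ratios of Nr5a2, Bhlha15 and Foxp1 to Ptf1a also overlapped. Those of Prox1 and Mecom to Ptf1a were higher in every Ela1-Myc library (0.0129 to 0.0583 and 0.035 to 0.107) than in any WT library (0 to 0.00315 and 0.00163 to 0.0272). The share of all genes with a higher ratio to Ptf1a was not computed. Deposited levels themselves were higher without overlap for 75.3% of tested genes, so this order is a description only. On the differences of log2(value + 1) that were tested, all 5 of these pairs overlapped (exact permutation p from 0.3 to 0.5, adjusted p = 0.5), since the added 1 compresses low values.

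**Figure D2:**
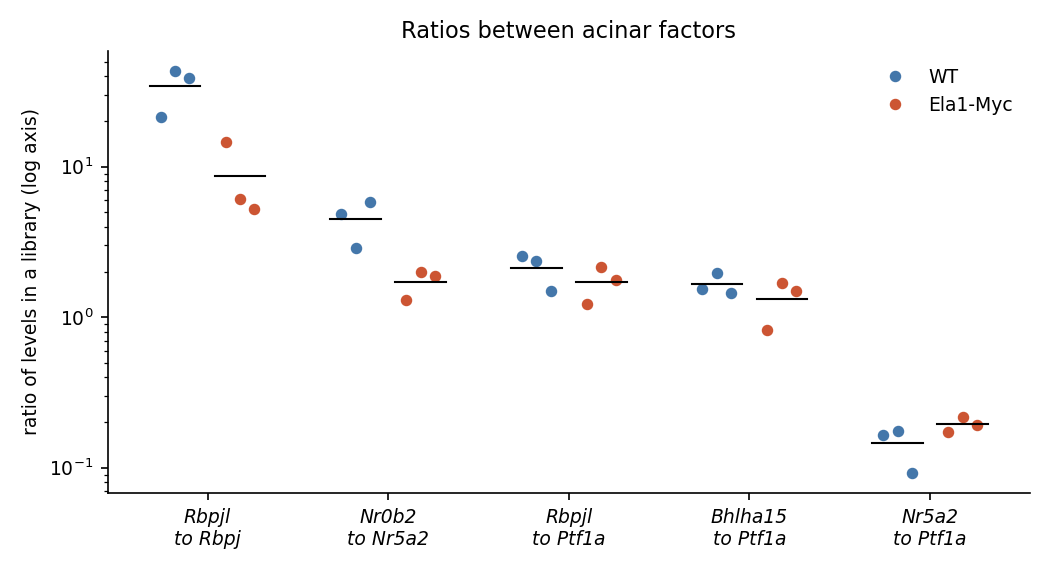
Ratio of 5 pairs of factors within each library (log axis), with 1 point per library for WT and Ela1-Myc and a line at each group mean. The Rbpjl to Rbpj and the Nr0b2 to Nr5a2 ratios are lower in all 3 Ela1-Myc libraries than in all 3 WT libraries, and the 3 ratios to Ptf1a shown overlap.

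Nr5a2, the nuclear receptor that binds enzyme promoters beside PTF1 (chromosome 1, 136843584 to 136960448), was at a deposited 1.53, 4.68 and 1.87 (WT) against 6.11, 2.50 and 3.25 (Ela1-Myc). The highest library of each group stood apart from the other two, and the groups overlapped. The log2 change was 0.45 ± 0.401 on the deposited scale (limma adjusted p = 0.308) and -0.66 ± 0.317 after scaling (limma adjusted p = 0.167), with 95% intervals from -0.40 to 1.31 and from -1.41 to 0.10. Scaled levels were 3.83, 5.44 and 3.18 (WT) against 3.85, 1.65 and 1.58 (Ela1-Myc), which overlap through Ela1-Myc replicate 1.

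Nr0b2 (SHP), an atypical nuclear receptor without a DNA-binding domain that represses other nuclear receptors and is itself a known target of Nr5a2, showed the lowest scaled change of the 7 tested factors. It lies on chromosome 4, 133553390 to 133556536. Deposited levels were 7.39, 13.4 and 10.9 (WT) against 7.96, 4.996 and 6.09 (Ela1-Myc). They overlapped only where Ela1-Myc replicate 1 exceeded WT replicate 1, and the log2 change of -0.64 ± 0.469 was not called (limma adjusted p = 0.222). Scaled levels of 18.5, 15.6 and 18.6 (WT) against 5.02, 3.30 and 2.95 (Ela1-Myc) were far apart. Nr0b2 was lower by a log2 change of -1.99 ± 0.272 (limma adjusted p = 0.00428), and the WT mean was 4.68-fold the Ela1-Myc mean.

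The 250 bases before the Nr0b2 start are shown because Nr0b2 was the only one of the 9 factors with CACGTG. This E box is known to be preferred by MYC with its partner MAX. It occurs in 1 of the 15 promoters of the factors (6.67%), close to the 7.15% of all promoters, and in none of the 13 enzyme promoters. Binding of Myc to it was not tested. Capitals mark CANNTG, of which CAGGTG and CACGTG are cases.
Nr0b2, chr4:133553126-133553375: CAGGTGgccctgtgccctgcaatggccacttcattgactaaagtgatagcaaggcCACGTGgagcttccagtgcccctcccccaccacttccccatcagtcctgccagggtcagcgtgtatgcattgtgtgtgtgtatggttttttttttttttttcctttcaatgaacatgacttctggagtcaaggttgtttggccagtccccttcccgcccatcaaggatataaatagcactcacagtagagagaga

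Within libraries Nr0b2 was compared with the receptor known to induce it. Nr0b2 exceeded Nr5a2 by 4.83-, 2.87- and 5.84-fold in WT and by 1.30-, 2.00- and 1.87-fold in Ela1-Myc, without overlap. Mean ratios were 4.51 ± 1.51 for WT and 1.72 ± 0.370 for Ela1-Myc (SD, n = 3 each; exact two-sided permutation p = 0.1, adjusted p = 0.4). The ratio of Nr0b2 to a tested gene was lower without overlap for 93.7% of all of them, so Nr5a2 is one of very many. Of 7 Nr5a2 partners and corepressors, 5 were tested. Of these 3 were higher on the deposited scale, beside 70.2% of all tested genes, and none was called after scaling. Ncoa1, Ncoa2 and Ncoa3 had WT levels under 1 in every library and passed the filter through their Ela1-Myc values, so the deposited count is a description only. Without Ela1-Myc replicate 3 the deposited count was 1.

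Bhlha15, the bHLH factor of the secretory apparatus (chromosome 5, 144190286 to 144194441), was at a deposited 14.3, 52.2 and 29.5 (WT) against 29.2, 19.2 and 25.3 (Ela1-Myc). The Ela1-Myc values lay inside the WT range, with a log2 change of -0.21 ± 0.678 (limma adjusted p = 0.782). Scaled levels were 35.7, 60.8 and 50.2 (WT) against 18.4, 12.7 and 12.3 (Ela1-Myc), without overlap, and the gene was lower by -1.68 ± 0.358 (limma adjusted p = 0.0191). Of 4 genes known to depend on Bhlha15, none was called on the deposited scale, where 70.2% of all tested genes were higher and 0.239% lower. All 4 were lower after scaling, beside 7.08% of all tested genes. All 16 digestive enzyme genes used below were lower after scaling too, so the direction is not particular to these 4. Scaled log2 changes were -1.61 for Rab3d and -1.93 for Rab26, small GTPases of secretory granules. They were -1.83 for Gjb1, a gap junction protein, and -1.70 for Atp2c2, a Golgi calcium pump (limma adjusted p = 0.0215, 0.004, 0.00715 and 0.00261 in this order); Rab3d was not called without Ela1-Myc replicate 2 or replicate 3 (limma adjusted p = 0.095 and 0.0859).

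**Figure D3:**
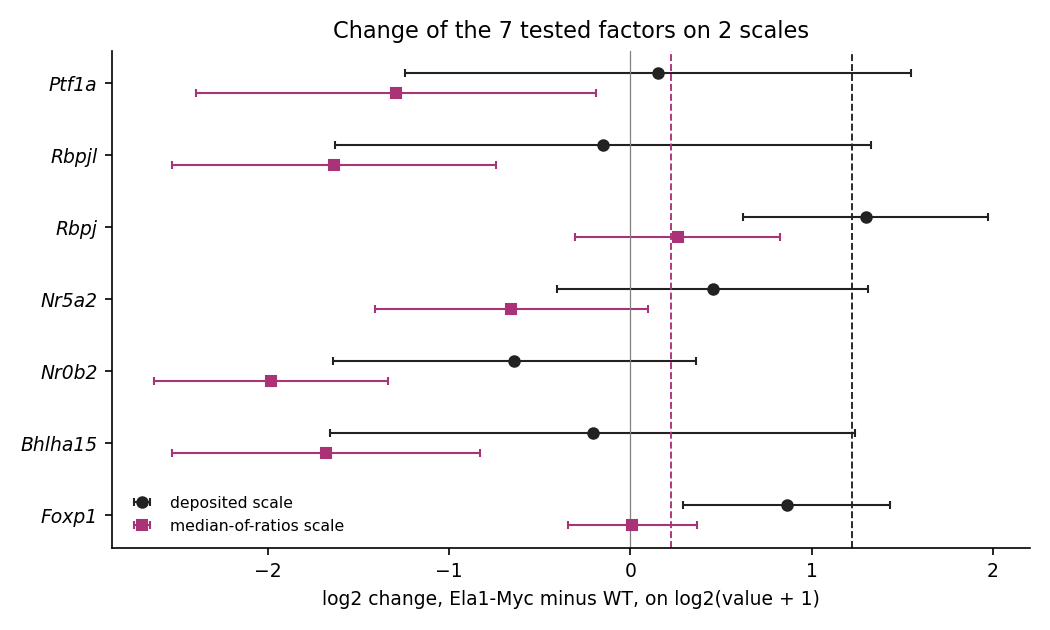
Log2 change (Ela1-Myc minus WT, on log2(value + 1)) of the 7 tested factors, with points for the limma estimate, bars for its 95% interval and dashed lines for the median of all tested genes on each scale. Every factor lies further left after median-of-ratios scaling, and the scaled intervals of Ptf1a, Rbpjl, Nr0b2 and Bhlha15 stay below 0.

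The scaled calls rest on few libraries. Without Ela1-Myc replicate 2 or replicate 3, Nr0b2 was the only one of the 7 called lower, with Rbpjl at an adjusted p of 0.101 and 0.087 and Bhlha15 at 0.0849 and 0.0761 (limma). Without Ela1-Myc replicate 1 Ptf1a was called as well (limma adjusted p = 0.0237), making 4, as it was with libraries weighted by their fit (0.0405). Without WT replicate 1 Rbpjl was at 0.0524, and without WT replicate 3 Bhlha15 was at 0.0534.

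Foxp1, a forkhead repressor (chromosome 6, 98925342 to 99435345), was at a deposited 0.501, 0.963 and 0.840 (WT) against 1.87, 1.88 and 2.94 (Ela1-Myc). The groups did not overlap, and the log2 change was 0.86 ± 0.268 (limma adjusted p = 0.0112), below the median of all tested genes; without Ela1-Myc replicate 3 its adjusted p was 0.0593. Scaled levels were 1.25, 1.12 and 1.43 (WT) against 1.18, 1.24 and 1.42 (Ela1-Myc). They covered almost the same range, with a scaled log2 change of 0.01 ± 0.150 and a 95% interval from -0.35 to 0.37 (limma adjusted p = 0.966).

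Prox1, a homeodomain factor of pancreatic progenitors, islets and lymphatic endothelium (chromosome 1, 190121777 to 190170680), was listed at 0 in WT replicates 1 and 3 and at 0.0836 in WT replicate 2. In Ela1-Myc it was at 0.458, 0.452 and 0.993, above every WT library, and this order held after scaling (0.289, 0.298 and 0.481). With no filter on low values its log2 change was 0.65 on the deposited scale and 0.39 after scaling (limma adjusted p = 0.0178 and 0.0244), where 36.7% and 7.61% of genes were called higher. Mecom, a zinc finger factor known from stem cells (chromosome 3, 29951296 to 30013204), was at 0.0151, 0.615 and 0.552 (WT) against 1.24, 1.23 and 1.61 (Ela1-Myc). Its groups did not overlap on the deposited scale, and its unfiltered log2 change was 0.79 (limma adjusted p = 0.0483). Scaled, WT replicate 1 was at 0.0377 and the other 5 libraries lay between 0.715 and 0.940, so the groups overlapped (log2 change 0.24, limma adjusted p = 0.493). The second Mecom row stood between 0 and 0.205 in all libraries.

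On the deposited scale 4 of the 9 factors, Rbpj, Prox1, Foxp1 and Mecom, had every Ela1-Myc library above every WT library, as did 75.3% of tested genes. After scaling Prox1 alone did so, against 28.9% of tested genes, and 4 factors, Ptf1a, Rbpjl, Bhlha15 and Nr0b2, had all Ela1-Myc libraries below all WT libraries, against 17.2%. Markers of other cell types also differed between the groups on the deposited scale, in part in another direction after scaling. The summed level of 6 macrophage markers ran from 0.711 to 46.1 in WT and from 243 to 809 in Ela1-Myc, with each of the 6 above WT without overlap and Cd68 listed at 0 in all WT libraries. For 5 stellate and fibroblast markers the range was 44.7 to 104.8 in WT and 350.4 to 525.7 in Ela1-Myc, again each without overlap. Scaled, these ranges were 1.21 to 80.8 and 153 to 534 for macrophages and 76.1 to 179 and 221 to 346 for stellate cells and fibroblasts. On the deposited scale the 5 endothelial markers summed to 9.39 to 13.8 and 21.3 to 27.7 (3 of 5 without overlap), and the 3 lymphatic markers to 1.37 to 3.71 and 4.86 to 11.1 (2 of 3). The 9 islet markers ran from 0.314 to 2478 in WT and 2443 to 3359 in Ela1-Myc (3 of 9), with 8 of them at 0 in some WT library. The 6 duct markers ran from 73.2 to 148 and 79.5 to 102 (4 of 6), with 2 at 0 in some WT library. The 7 lymphocyte markers ran from 0 to 40.7 and 19.6 to 200.2 (2 of 7), each at 0 in some WT library. Scaled sums, in WT and then in Ela1-Myc, were 15.99 to 30.8 and 13.2 to 18.3 for endothelial and 2.31 to 9.28 and 3.06 to 7.35 for lymphatic markers, which overlap. They were 0.784 to 2882 and 1541 to 1888 for islet markers and 0 to 101.8 and 12.4 to 132 for lymphocyte markers, which also overlap. Scaled duct sums did not overlap, at 172.6 to 219 and 49.4 to 57.1. The part of these cell types in the values of Rbpj, Prox1, Foxp1 and Mecom was not tested.

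Ranks within a library depend on no scaling. Among 11198 genes above 0 in all 6 libraries, 5 factors ranked lower in every Ela1-Myc library than in every WT library, a pattern shown by 23.2% of the ranked genes. The mean percentile of Rbpjl was 97.5 ± 0.161 in WT and 94.6 ± 0.931 in Ela1-Myc, that of Bhlha15 96.96 ± 0.500 and 93.1 ± 0.979, and that of Ptf1a 95.4 ± 1.12 and 90.6 ± 3.94 (SD, n = 3 each; exact permutation p = 0.1 for each). The gap was wider for the nuclear receptors, with Nr0b2 at 93.04 ± 1.83 and 75.1 ± 4.02 and Nr5a2 at 76.8 ± 2.20 and 61.8 ± 11.4 (SD, n = 3 each; exact permutation p = 0.1). Percentile gaps do not compare sizes of change in level. The scaled log2 change of Nr5a2 was -0.66, smaller than -1.64 for Rbpjl, -1.68 for Bhlha15 and -1.29 for Ptf1a. For Ptf1a and Nr5a2 the margin in rank was small, since Ela1-Myc replicate 1 stood at 94.68 and 74.9 beside lowest WT percentiles of 94.71 and 75.2. Foxp1 at 52.0 and 49.2, Rbpj at 59.7 and 66.1 and Mecom at 29.5 and 36.3 in WT and Ela1-Myc overlapped (exact permutation p = 0.2, 0.5 and 1). Adjusted over the 8 ranked factors, the smallest p was 0.16.

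**Figure D4:**
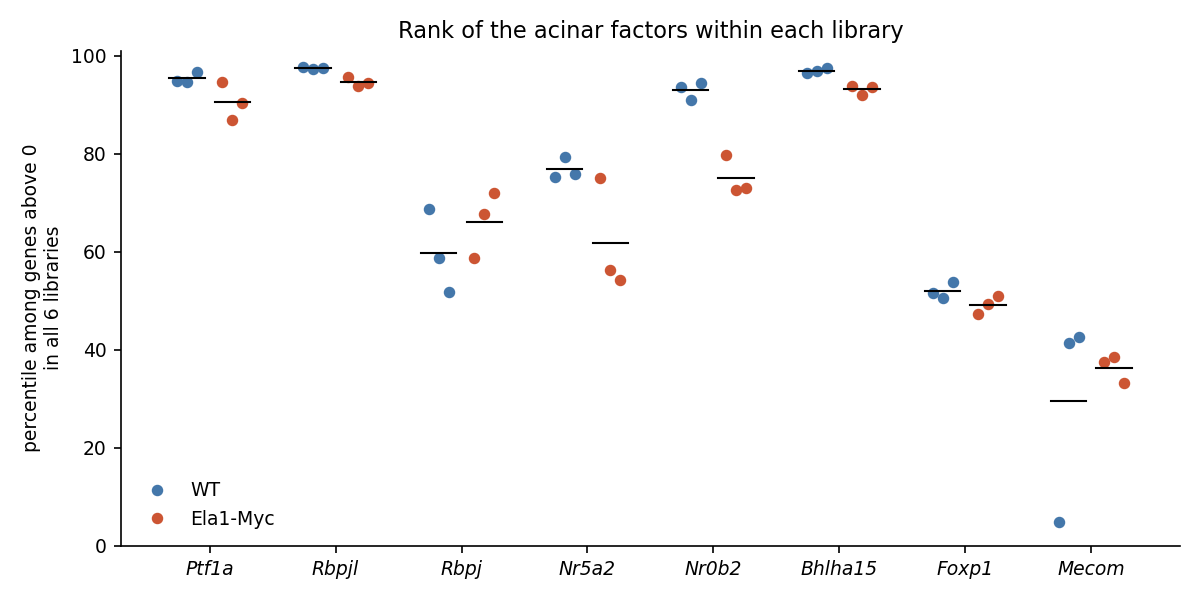
Percentile rank of each ranked factor among 11198 genes in each of the 6 libraries. Ptf1a, Rbpjl, Nr5a2, Bhlha15 and Nr0b2 rank lower in all Ela1-Myc libraries than in all WT libraries, with the widest percentile gaps for Nr0b2 and Nr5a2. Percentile gaps do not compare sizes of change in level.

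The enzyme genes are the best known targets of PTF1 in acinar cells and among the most abundant transcripts of the pancreas. A reference of 16 enzyme genes with few close copies was called lower for 9 of 16 genes on the deposited scale and for 16 of 16 after scaling, with median log2 changes of -1.12 and -2.66. Of all tested genes 0.239% and 7.08% were lower, with medians of 1.22 and 0.22. The deposited count is not stable: it was 15, 0 and 3 without WT replicate 1, 2 or 3, and 4 without Ela1-Myc replicate 2 or replicate 3. It was 0 with no filter on low values. Under quantile normalization 3 of the 16 were lower (median -0.26), beside 20% of all tested genes (median -0.18). Scaled log2 changes were -2.67 for the carboxypeptidase Cpa1, -2.93 for the elastase Cela1, -2.22 for the chymotrypsinogen Ctrb1 and -3.04 for the lipase Pnlip (limma adjusted p = 0.00495, 0.000948, 0.00705 and 0.000666). Of 17 further enzyme and granule genes, many with near-identical copies, 15 were tested. On the deposited scale 4 were higher and 3 lower, beside 70.2% and 0.239% of all tested genes. After scaling 3 were higher and 9 lower, beside 17% and 7.08%. The 4 higher on the deposited scale were Amy2a5, Amy2b, Prss1 and Prss3, amylase and trypsinogen copies named after their values were seen. Each was listed at 0 in WT replicates 1 and 3 and was higher in every Ela1-Myc library than in WT replicate 2; Amy2a5 stood at 70.4 there and at 1278 to 1665 in Ela1-Myc. Reads shared between copies make their levels uncertain.

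Set against the summed enzymes, every factor except Nr0b2 stood higher in all Ela1-Myc libraries than in all WT libraries. The share of all genes with this order was not computed on this measure. Against the mean log2 level of the enzymes, given below, it was 96.2% of the other tested genes, so the order here is a description only. Per 1000000 of the summed level of the 16 enzymes, Ptf1a was at 19.2, 18.3 and 23.3 (WT) against 62.8, 41.3 and 41.7 (Ela1-Myc). Rbpjl was at 49.2, 43.0 and 34.8 and at 77.0, 88.5 and 74.0, and Bhlha15 at 29.7, 36.1 and 33.9 and at 51.7, 69.3 and 61.9. None of these 3 overlapped between the groups. Nr5a2 was at 3.19, 3.23 and 2.15 (WT) against 10.8, 9.02 and 7.96 (Ela1-Myc). Nr0b2 was closest to the enzymes, at 15.4, 9.28 and 12.5 (WT) against 14.1, 18.0 and 14.9 (Ela1-Myc), which overlap. Rbpj was at 2.28, 0.991 and 0.898 and at 5.26, 14.4 and 14.2, a mean 8.12-fold higher in Ela1-Myc. Mecom was at 0.0314, 0.425 and 0.635 and at 2.20, 4.42 and 3.93, a mean 9.67-fold higher, and Prox1, listed at 0 in 2 WT libraries, was at 0.809 to 2.43 in Ela1-Myc.

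Against the mean log2(value + 1) of the 16 enzymes, the log2 difference between the groups was 0.48 for Nr0b2, 0.91 for Bhlha15, 0.97 for Rbpjl, 1.27 for Ptf1a, 1.58 for Nr5a2, 1.77 for Prox1, 1.91 for Mecom, 1.98 for Foxp1 and 2.42 for Rbpj; the added 1 compresses the values of the low genes, Prox1 and Mecom above all. On this measure all 9 were higher without overlap (exact two-sided permutation p = 0.1 for each, also adjusted), as were 96.2% of the other tested genes, so the direction says nothing particular to these factors. Fitted by limma with each library divided by the enzymes, 6 of the 7 tested factors were higher, Nr0b2 excepted at 0.35 ± 0.299 (limma adjusted p = 0.273), against 96.4% of tested genes. Rbpjl at 0.94, Bhlha15 at 0.88 and Ptf1a at 1.21 rose by less than the median of all tested genes, 1.97, and Rbpj rose by 2.02.

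**Figure D5:**
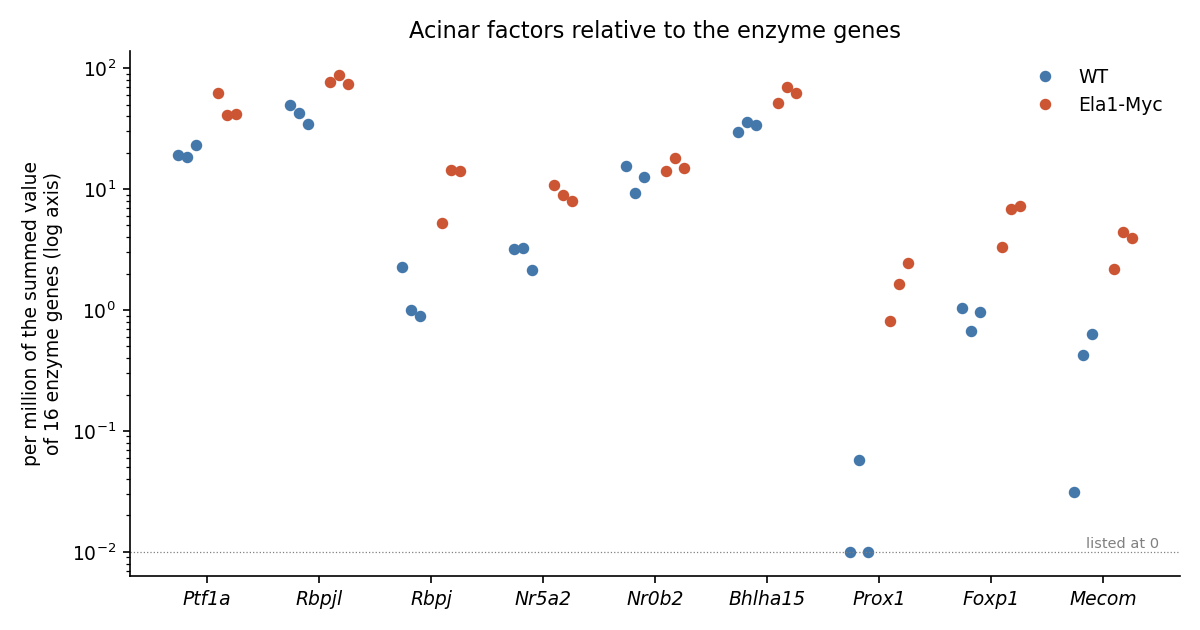
Level of each factor per 1000000 of the summed level of 16 enzyme genes, in each library (log axis; values listed at 0 are drawn on the dotted line). The Ela1-Myc libraries lie above the WT libraries for every factor except Nr0b2, whose groups overlap. The share of all genes with this order was not computed on this measure.

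The bHLH partners of Ptf1a and Bhlha15 and the inhibitors of those partners had higher deposited levels in Ela1-Myc. Of 7 E proteins and Id proteins, 6 were tested; all 6 were higher on the deposited scale and 4 after scaling, and 3 of the 6 lay above 0 in every library. Over all tested genes 70.2% were called higher on the deposited scale and 17% after scaling. Id1, Tcf3 and Tcf4 had WT levels under 1 in every library and passed the filter through their Ela1-Myc values. These counts, and the calls of these genes, are therefore a description only. Tcf3, which encodes the E proteins E12 and E47, was at a deposited 0.245, 0.445 and 0.147 (WT) against 3.45, 3.90 and 5.41 (Ela1-Myc). Its groups were far apart, with a log2 change of 2.03 ± 0.274 (limma adjusted p = 5.62e-05) and of 1.25 ± 0.169 after scaling (limma adjusted p = 0.00408). Tcf12 and Tcf4, the other E proteins, rose by 1.16 and 0.94 on the deposited scale, less than the median of all tested genes (limma adjusted p = 0.0058 and 0.00832) and showed 0.11 each after scaling (limma adjusted p = 0.665 and 0.673).

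Id proteins bind E proteins and keep them from DNA. Id1 had a listed 0 in every WT library and stood at 19.9, 9.38 and 6.83 in Ela1-Myc. Id2 was at 1.00, 3.20 and 0 (WT) against 14.6, 19.2 and 21.1 (Ela1-Myc), and Id3 at 1.48, 1.91 and 0 (WT) against 27.5, 17.2 and 14.1 (Ela1-Myc). All 3 were called higher on both scales, beside 70.2% and 17% of all tested genes. Id1 passed the filter only through its Ela1-Myc values, so its calls are a description only. The scaled calls of Id2 and Id3 were lost without any one of the Ela1-Myc libraries (limma adjusted p from 0.0701 to 0.124 and from 0.0812 to 0.126), and that of Id3 also without WT replicate 3 (0.0598). Id4 stood under 1 in all libraries and was not tested.

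Of 13 Notch receptors, cofactors and targets that act through Rbpj, 4 were tested. All 4 were higher on the deposited scale and none after scaling, beside 70.2% and 17% of all tested genes. Notch1, Notch2 and Heyl had WT means under 1 and passed the filter through their Ela1-Myc values. The deposited count, and the deposited calls of these genes, are therefore a description only. Hes1, the best known Notch target, changed by 1.04 on the deposited scale (limma adjusted p = 0.00781; 0.0556 without Ela1-Myc replicate 3) and showed -0.04 after scaling (limma adjusted p = 0.938). The receptor Notch1 showed 1.03 and 0.15, and Notch2 1.40 and 0.60 (limma adjusted p = 0.00529 and 0.661, and 0.00138 and 0.257). The deposited changes of Hes1 and Notch1 lay below the median of all tested genes, 1.22. Without Ela1-Myc replicate 3, 2 of the 4 were called on the deposited scale, and without WT replicate 1 the scaled count was 1. Hey1 and Nrarp stood under the mean of 1. Of 13 other pancreas and epithelial factors, 12 were tested. Of these 3 were higher on the deposited scale and 3 lower after scaling, beside 70.2% and 7.08% of all tested genes. Both counts were 0 without Ela1-Myc replicate 3. The deposited count was 1 without WT replicate 1 or Ela1-Myc replicate 1, and the scaled count was also 0 without Ela1-Myc replicate 2.

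The genes whose profile over the 6 libraries lay closest to a factor, among 6994 other tested genes above 0 in all libraries, were measured by the largest gap between centred log2(value + 1) values. For Rbpjl they were Rab3d, Prdx4 and Fam174b, with gaps of 0.0667, 0.109 and 0.136. Rab3d, a GTPase of zymogen granules, was at 12.2, 33.9 and 15.5 (WT) against 22.7, 12.1 and 16.4 (Ela1-Myc), which follows Rbpjl library by library. For Bhlha15 they were Chchd7, Fbxo31 and Xbp1, with gaps of 0.135, 0.186 and 0.209; Xbp1 encodes a factor of the unfolded protein response. For Nr5a2 they included Slc1a4 and Rgs11 (0.0526 and 0.126), and for Ptf1a they were Vegfb, Tcea3 and Slc41a1 (0.235, 0.239 and 0.247). These gaps are a description over 6 libraries that share their scale.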

How the data were processed

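For each gene and library the authors deposited a single number, which is an adjusted FPKM per the file headers; the adjustment itself was not given in the sources used here. Per the submitters' processing notes, GRCm38 (mm10) was the build, and the tools named are TopHat2 2.0.4, Cufflinks 2.0.2, Bowtie, CASAVA 1.8, FastQC 0.9.4 and affy; spike-in RNA, polyadenylated RNA and a stranded kit are given per the labels' protocols. Every value was divided by 100000, a constant that leaves ratios unchanged. Where a symbol had several rows (187 symbols), its highest row by mean was used. limma 3.58.1 (R 4.3.3) tested the 8802 genes whose mean reached 1, two-sided, with a variance trend, using log2(value + 1) on the deposited scale and after median-of-ratios scaling. Enzyme-relative values, ranks and ratios were compared by exact two-sided permutation, whose smallest p is 0.1. The fit was tested on simulated data. Depth is unknown, so no counting interval is given. Fold changes on log2(value + 1) understate the change of low genes.

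The members and gene lists were chosen with earlier results of these data known. Named genes are the 9 factors, 20 genes of the context lists whatever their result, and the 3 closest profiles for each of Ptf1a, Rbpjl, Nr5a2 and Bhlha15; Matn4 and Myc were added beside the results they touch. 1 of the closest profiles is not reported here. Settings varied were the pseudocount, filters, scaling, library weights, the enzyme list and each library left out.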

Additional observations from a re-analysis of the deposited data

How the results depend on the processing

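No paired analysis was possible because the labels give no replicate numbers; those used here follow the order of deposition. The count of factors called higher on the deposited scale (2) became 4 with no filter, 0 with a mean of at least 5 (where 4 are tested), 0 under quantile normalization, 0 with the enzymes left out and totals made equal, 6 when divided by the enzymes, and 1 to 2 with a library left out. The count called lower (0) became 1 with array weights, 5 under quantile normalization, 3 with the enzymes left out, and stayed 0 with a library left out. After median-of-ratios scaling 1 factor, Prox1, was called higher with no filter, and 1 to 4 were called lower with a library left out. Log2 changes on the deposited scale that turned sign were Ptf1a (-0.18 with array weights, -1.44 quantile, -1.06 enzymes left out, -0.28 to 0.50 with a library left out), Rbpjl (0.00094 with array weights, 0.94 divided by enzymes, -0.43 to 0.25), Bhlha15 (0.88 divided by enzymes, -0.67 to 0.23), Nr0b2 (0.35 divided by enzymes), Nr5a2 (-0.98 quantile, -0.48 enzymes left out), Rbpj (-0.069 quantile) and Foxp1 (-0.48 quantile). Under quantile normalization Tcf12 was at -0.21, Tcf4 at -0.38, Hes1 at -0.43, Notch1 at -0.32 and Notch2 at -0.027. Scaled Foxp1 ranged from -0.045 to 0.055 with a library left out. Ranked among all symbols, the percentile differences of Rbpj and Mecom were -0.53 and -0.98, and that of Mecom ran from -5.54 to 13.3 with a library left out. The cause of these changes was not tested, apart from the filter. All 81 alternatives for enzyme-relative values and all 56 for ratios kept their direction, with a smallest possible p of 0.2 where a library was left out. Scaling factors from tested genes alone, chosen after seeing the data, moved no count of factors called.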
